A study of Mus musculus with 6 samples.

Results

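The transcripts described here encode the proteins that make microRNAs: Dicer1, Drosha, Dgcr8, Xpo5, Tarbp2, Prkra, Ddx5, Ddx17, Tsn and Tsnax. Every probe set, the group of short probes that reads a transcript on an Affymetrix array, was taken if the platform annotation gave it one of these 10 genes and no other gene. That chose 30 of the 45037 probe sets that are not controls, between 2 and 6 for each gene. The arrays compare mouse embryonic stem (ES) cells of a Dicer +/- line, D4, with cells of a Dicer -/- line, called 27H in the sample titles and 27H10 in the series title. Both lines were undifferentiated, each was measured on 3 arrays, and the labels name no other allele, agent or age. They are called heterozygous and null below. Each genotype is 1 line, so an effect of genotype and one of the line cannot be told apart. Whether the 3 arrays of each line stem from different cultures is not in the labels, and the p-values therefore reflect array-to-array spread that may be technical.

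MicroRNA genes are transcribed into long RNAs that fold into hairpins. In the nucleus the ribonuclease Drosha and its RNA-binding partner Dgcr8, together the Microprocessor, cut the hairpin free, and the helicases Ddx5 and Ddx17 bind this complex. Exportin 5, from Xpo5, carries the hairpin to the cytoplasm, where Dicer removes the loop. Tarbp2 (TRBP) and Prkra (PACT) are related double-stranded RNA binding proteins that hold Dicer and help to pass the duplex to an Argonaute protein. Tsn (translin) and Tsnax (TRAX) form C3PO, a ribonuclease that removes passenger strand fragments during loading. ES cells without Dicer are known to live but to lack mature microRNAs and to differentiate poorly.

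A pair of hairpins from the RefSeq microRNA table (GRCm38.p6) shows what these proteins cut. Mir294 (chr7:3220641-3220724, plus strand) belongs to the miR-290 cluster, abundant in ES cells, and Mir1306 (chr16:18284239-18284317, minus strand) lies within the Dgcr8 gene, whose own messenger RNA is a known substrate of the Microprocessor. Capitals mark the mature arms; Drosha cuts at their outer ends and Dicer at the ends that face the loop.
Mir294: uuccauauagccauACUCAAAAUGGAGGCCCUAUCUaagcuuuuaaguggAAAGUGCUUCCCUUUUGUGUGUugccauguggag
Mir1306: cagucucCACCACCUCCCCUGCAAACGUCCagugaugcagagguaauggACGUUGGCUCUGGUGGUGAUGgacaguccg

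Of the 10 genes, 3 span an annotated microRNA hairpin: Dgcr8, Ddx5 and Xpo5. A mature arm within Ddx5 (chr11:106782736-106782757, minus strand) and one within Xpo5 (chr17:46231551-46231571, plus strand) are shown with the seed, bases 2 to 8, in capitals. MicroRNAs themselves were not measured on these arrays.
mmu-miR-3064-5p: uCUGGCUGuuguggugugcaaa
mmu-miR-693-5p: cAGCCACAuccgaaaguuuuc

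All 10 ES cell markers checked, Pou5f1, Sox2 and Nanog among them, read at least 32 units on every array, and their summed intensity was 107491 to 112104 in heterozygous and 101119 to 106714 in null arrays. Without Tdgf1 the sums were 92921 to 97217 and 88074 to 94290, which overlap. Of 10 feeder fibroblast markers, 4 read at least 32 on all arrays and Postn on none; the sums were 523 to 576 in heterozygous and 626 to 684 in null arrays, or 506 to 544 and 367 to 422 without Dcn. Of 8 primitive endoderm markers, 4 read at least 32 on all arrays, with sums of 1128 to 1755 in heterozygous and 433 to 509 in null arrays. Without Dab2 these sums were 522 to 928 and 292 to 365. The part of these markers in the results was not tested. In such bulk RNA, fewer cells of a type and less RNA per cell cannot be told apart. Pearson correlations over the tested probe sets were 0.957 to 0.964 between arrays of a line and 0.918 to 0.923 between lines.

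Few of the probe sets that read the machinery passed the test between the lines. Of the 30 probe sets, 28 reached an intensity of 32 on at least 3 arrays and were tested with limma; the other 2, Dgcr8 1446169_at and Prkra 1447737_at, stayed between 1.39 and 25.9 on all arrays. A probe set passed at a Benjamini-Hochberg adjusted p under 0.05. Of the 28, 1 passed as higher and 5 as lower in null cells, while 40.1% of all 26545 tested probe sets passed, 18.9% higher and 21.2% lower. Those that passed as lower read Tarbp2 (both of its probe sets), Xpo5, Drosha and Ddx17, and the one that was higher read Tsn. Only 1 of the 28 both passed and differed by a log2 value of at least 1, which is 2-fold, against 12.3% of all. For 12 of the 28 every array of one line lay above every array of the other, against 51.3% of all. The median log2 difference, null minus heterozygous here and throughout, was -0.12 for the 28 and -0.06 for all probe sets tested. The count depends on single arrays: it was 3 without heterozygous replicate 1, heterozygous replicate 2 or null replicate 2, and 9 without both arrays numbered 3. The share of all probe sets that passed in these fits was not counted. The calls for both Tarbp2 probe sets and Xpo5 1428560_at held in all of these fits.

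**Figure D1:**
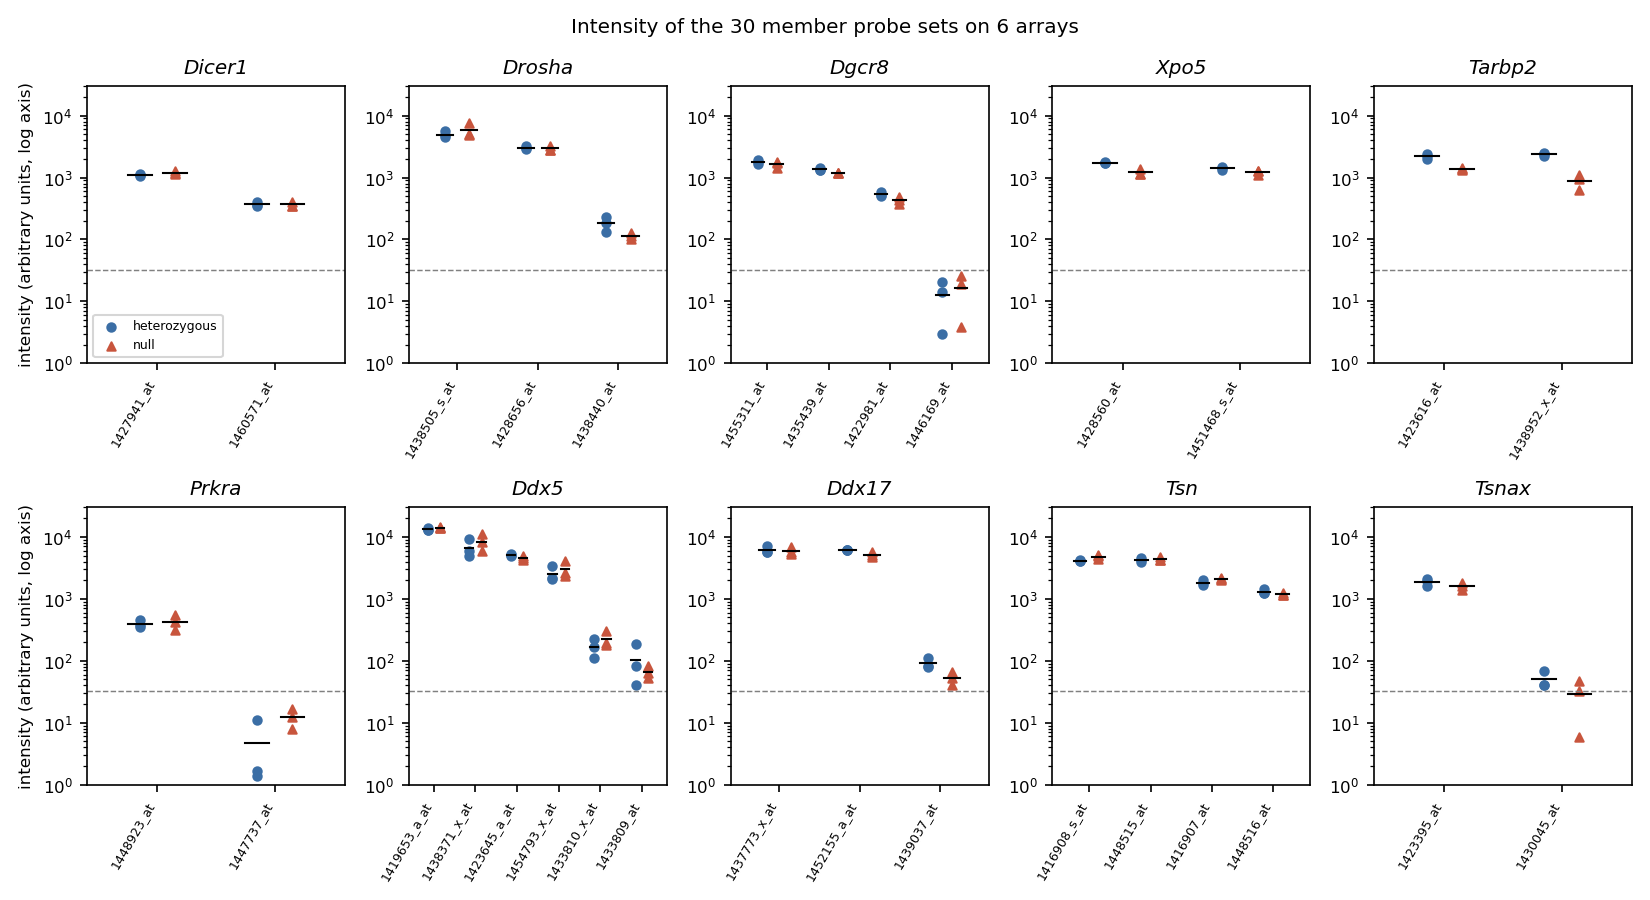
Intensity (arbitrary units, log axis) of the 30 probe sets on each array, 1 panel a gene; circles are heterozygous and triangles null arrays, short lines the means of 3 arrays, and the dashed line an intensity of 32. The null triangles lie below the heterozygous circles for both Tarbp2 probe sets and for Xpo5, while those of Dicer1 1460571_at, Drosha 1428656_at and Prkra 1448923_at overlap.

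Scaling sets part of this picture. The deposited values share a trimmed mean, while the median intensity of an array was 49.0 to 52.7 in heterozygous and 44.9 to 46.5 in null cells, over all probe sets but the controls. Centring each array on its median raised every log2 difference by about the same amount, moving the median of all tested probe sets from -0.06 to 0.10. The members then split into 4 higher and 3 lower, and all tested probe sets into 25.5% higher and 14.1% lower. Quantile normalization gave 1 higher and 4 lower members, beside 19.3% higher and 20.9% lower of all tested probe sets.

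**Figure D2:**
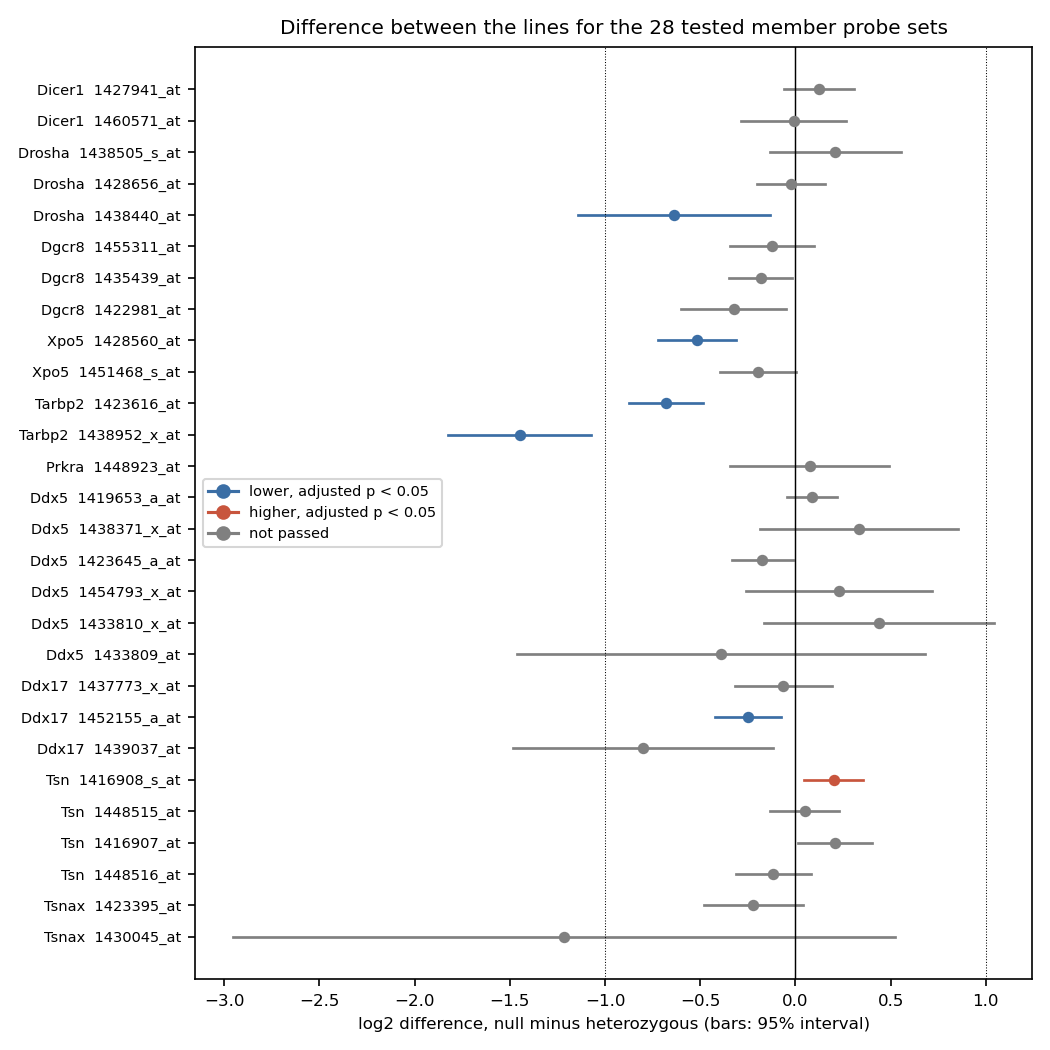
Log2 difference between the lines (x axis, null minus heterozygous) for the 28 tested probe sets (y axis), with points for the estimate, bars for the 95% interval from limma and dotted lines at a 2-fold difference in either direction. Tarbp2 1438952_x_at is the one point past the dotted line among those that passed, and both Dicer1 intervals include 0.

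Dicer1, the gene that differs between the lines by design, passed on neither of its probe sets. Its brighter probe set, 1427941_at, read 1117, 1124 and 1053 in heterozygous and 1256, 1132 and 1203 in null arrays. The null arrays lay above the heterozygous ones, by little: the log2 difference was 0.12 with a 95% interval of -0.06 to 0.31 and a limma adjusted p of 0.264. With arrays centred on their medians the difference was 0.28 and passed, at an adjusted p of 0.037. The dimmer probe set, 1460571_at, read 407, 353 and 349 in heterozygous and 348, 348 and 407 in null arrays. Here the groups overlapped, with a difference of -0.01 (interval -0.29 to 0.27, adjusted p 0.962); the sign turned to 0.15 with centred arrays. Which part of Dicer1 was removed is not in the labels, so these readings are no check of the genotype if the probes lie elsewhere. The gene lies at chr12:104687740-104751968 (GRCm38.p6).

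Drosha, the nuclear ribonuclease, was read by 3 probe sets that did not move one way. The probe set 1428656_at read 3166, 2955 and 2844 in heterozygous and 2811, 2792 and 3228 in null arrays. The groups overlapped, and the log2 difference was -0.02 with an interval of -0.20 to 0.16; it was 0.13 with centred arrays. The brightest one, 1438505_s_at, read 4511, 4775 and 5534 against 4771, 5052 and 7655. In each line the array numbered 3 was the highest, and the difference of 0.21 (adjusted p 0.317) was -0.00 without null replicate 3. The dim probe set 1438440_at read 231, 181 and 133 in heterozygous and 101, 114 and 129 in null arrays. It fell by 0.64 on the log2 scale with a limma adjusted p of 0.0458, a call lost in 9 of 18 alternatives, with adjusted p values of 0.011 to 0.177 over all of them. It was lost without heterozygous replicate 1 (-0.45) or 2 (-0.62), without null replicate 1 (-0.55) or 2 (-0.64), with centred arrays (-0.48) and with quantile normalization (-0.60).

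Dgcr8, the RNA-binding subunit of the Microprocessor, passed on none of its 3 tested probe sets, whose mean differences were all below 0. The clearest separation was at 1435439_at, which read 1404, 1341 and 1331 in heterozygous and 1197, 1201 and 1191 in null arrays. No null array reached the lowest heterozygous one, and the log2 difference was -0.18 ± 0.08 (SE) with an adjusted p of 0.077. The probe set 1422981_at read 527, 501 and 577 against 477, 439 and 370. Its groups did not overlap either, at a difference of -0.32 with an adjusted p of 0.0599, which was 0.0377 without null replicate 1. The brightest, 1455311_at, read 1773, 1891 and 1650 against 1758, 1728 and 1413, and its groups overlapped. It differed by -0.12 (interval -0.34 to 0.10), or by 0.03 with centred arrays.

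Xpo5, the export receptor of precursor hairpins, fell in null cells on 1 of 2 probe sets. The probe set 1428560_at read 1711, 1772 and 1720 in heterozygous and 1375, 1124 and 1150 in null arrays. All null arrays were below all heterozygous ones, and the transcript fell by 0.52 ± 0.09 (SE) on the log2 scale, or 1.43-fold, at a limma adjusted p of 0.00122. The call held in all 18 alternatives, at differences of -0.61 to -0.36. The other probe set, 1451468_s_at, read 1478, 1415 and 1332 against 1291, 1295 and 1107. It separated the lines too, but its difference of -0.20 (interval -0.40 to 0.01) did not pass, at an adjusted p of 0.113. The fit over pairs of probe sets did not separate their changes: they differed by 0.32 ± 0.13 (SE) with an adjusted p of 0.201.

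Tarbp2, the Dicer partner TRBP, had the largest differences among the probe sets that passed. The probe set 1423616_at read 2214, 2405 and 2007 in heterozygous and 1391, 1437 and 1300.3 in null arrays. Every null array lay below every heterozygous array, and the transcript fell by 0.68 ± 0.09 (SE) on the log2 scale, or 1.60-fold, at a limma adjusted p of 0.000145. The second, 1438952_x_at, read 2236, 2522 and 2369 in heterozygous and 1112, 632 and 934 in null arrays. It fell by 1.45 ± 0.17 (SE), or 2.73-fold, at an adjusted p of 7.66e-05. Its suffix x marks probes that may also bind other transcripts, and its highest null array was 1.76 times its lowest. Both calls held in all 18 alternatives, between -0.75 and -0.53 for the first and between -1.63 and -1.22 for the second. The pair of probe sets did not pass the test of unequal change, at a difference of -0.77 ± 0.22 (SE) and an adjusted p of 0.0928.

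Prkra, which encodes PACT and is related to Tarbp2, did not pass. Its tested probe set, 1448923_at, read 459, 356 and 383 in heterozygous and 314, 540 and 430 in null arrays. The null arrays held both the lowest and the highest reading, and the difference was 0.07 with an interval of -0.34 to 0.49 (adjusted p 0.784). Whether Tarbp2 and Prkra changed unequally was not tested. Tarbp2 (chr15:102516077-102523676) and Prkra (chr2:76609215-76648220) lie on chromosomes whose tested genes had median log2 differences of -0.11 and -0.07.

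The sequences before the start sites of Tarbp2 and Xpo5 are shown because these 2 genes passed as lower in every alternative. They come from RefSeq (GRCm38.p6), which had an entry for 9 of the 10 genes, and hold the 250 bases before the listed start, at chr15:102517942-102518191 for Tarbp2 and chr17:46202561-46202810 for Xpo5, both on the plus strand. The Tarbp2 window lies inside the gene span given above (chr15:102516077-102523676), so its listed start is not the first base of that span. The Xpo5 window ends just before its gene span, which begins at 46202811. Capitals mark matches on either strand to 5 motifs, the CCAAT box (CCAAT), the GC box (GGGCGG), the E-box (CACGTG), an ETS core (CCGGAAG) and the TATA box (TATAAA).
Tarbp2: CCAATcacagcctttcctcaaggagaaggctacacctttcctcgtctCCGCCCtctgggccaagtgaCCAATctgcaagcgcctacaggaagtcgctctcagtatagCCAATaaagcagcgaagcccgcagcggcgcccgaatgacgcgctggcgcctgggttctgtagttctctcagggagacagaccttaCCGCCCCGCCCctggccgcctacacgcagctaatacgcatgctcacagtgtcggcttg
Xpo5: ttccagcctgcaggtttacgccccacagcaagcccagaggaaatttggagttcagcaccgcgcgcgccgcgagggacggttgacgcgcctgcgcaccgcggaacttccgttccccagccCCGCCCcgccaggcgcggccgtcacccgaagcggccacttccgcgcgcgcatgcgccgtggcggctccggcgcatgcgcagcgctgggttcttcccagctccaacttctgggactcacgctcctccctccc

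The Tarbp2 window held 3 CCAAT boxes and 3 GC boxes, of which 2 overlap, and the Xpo5 window held 1 GC box. Over all 32851 windows of 250 bases taken in the same way, 33.8% held a CCAAT box, 32.7% a GC box, 6.02% an E-box, 6.91% the ETS core and 12.4% a TATA box. Among members that did not pass, the window of Dicer1 held 1 CCAAT box and 1 GC box, that of Dgcr8 4 and 1, and that of Prkra 0 and 5. The Drosha window held 3 CCAAT boxes and 0 GC boxes.

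Ddx5 (p68), a DEAD-box helicase that binds the Microprocessor, was read by 6 probe sets, and none passed in the main fit, though some did in alternatives. The brightest, 1419653_a_at, read 14055, 13125 and 12750.0 in heterozygous and 13768, 14412 and 14167 in null arrays. The difference of 0.09 had a narrow interval, -0.05 to 0.22, with an adjusted p of 0.283; with centred arrays it was 0.24 and passed, at 0.0212. The probe set 1423645_a_at read 5339, 4999 and 5045 against 4554, 4218 and 4891. Its groups did not overlap, at a difference of -0.17 with an adjusted p of 0.0812. Without null replicate 3 it was -0.23 and passed, at 0.0183.

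The other Ddx5 probe sets varied more within a line than between the lines. The probe set 1438371_x_at read 4971, 5863 and 9222 in heterozygous and 6018, 8120 and 10970 in null arrays. The array numbered 3 was the highest of each line, 1.85 times the lowest in heterozygous and 1.82 times in null cells. The same array led in both lines at 1454793_x_at (2138, 2114 and 3403 against 2294, 2642 and 4095) and at 1433810_x_at (167, 112 and 227 against 183, 193 and 300). These 3 probe sets differed by 0.33, 0.23 and 0.44 between the lines, at adjusted p values of 0.293, 0.442 and 0.231. The first passed without heterozygous replicate 3 (0.59, adjusted p 0.0494) and without both arrays numbered 3 (0.37, adjusted p 0.0478). The dimmest, 1433809_at, read 40.5, 82.5 and 186 against 62.8, 82.7 and 53.0, and its difference of -0.39 became 0.17 without heterozygous replicate 3. The suffix x marks probe sets whose probes may also bind other transcripts.

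**Figure D3:**
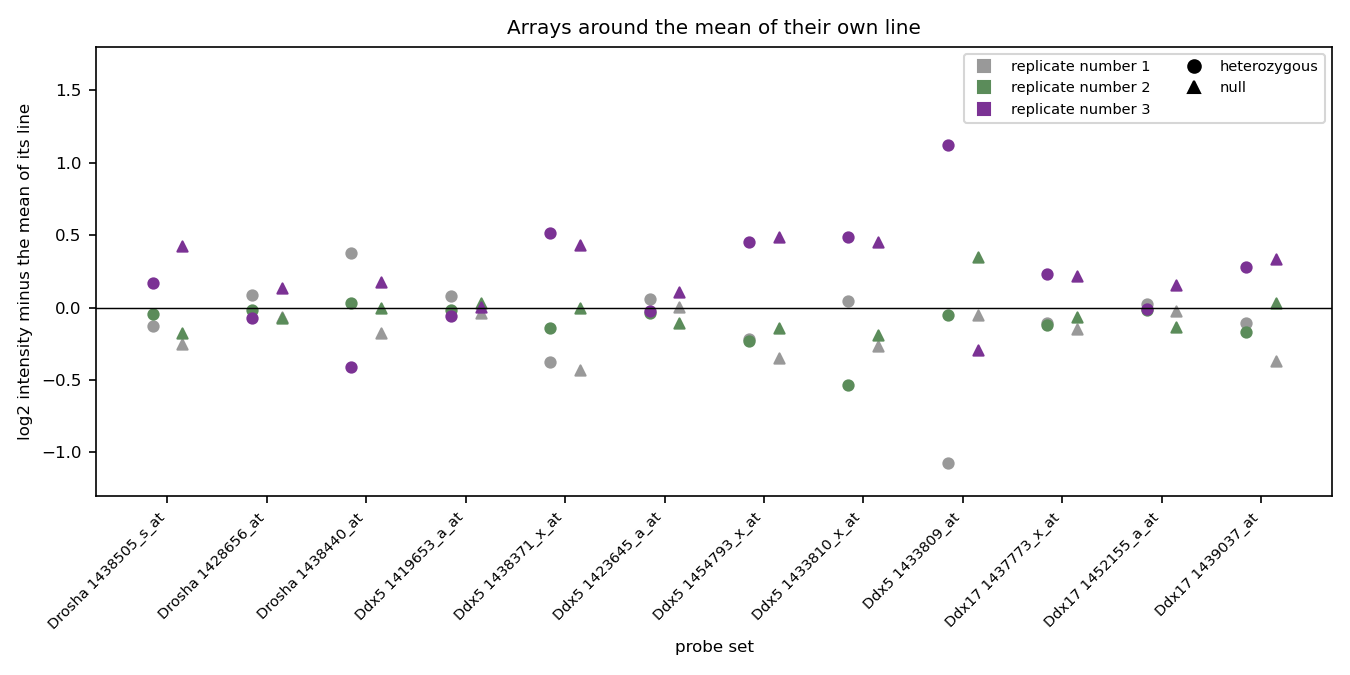
Log2 intensity of each array minus the mean of its own line (y axis) for the tested Drosha, Ddx5 and Ddx17 probe sets (x axis); colours mark the replicate number, circles heterozygous and triangles null arrays. The arrays numbered 3 are the highest of both lines at the x probe sets of Ddx5 and Ddx17, at Drosha 1438505_s_at and at Ddx17 1439037_at.

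Ddx17 (p72), the close relative of Ddx5, fell on 1 of 3 probe sets. The probe set 1452155_a_at read 6222, 6046 and 6078 in heterozygous and 5059, 4687 and 5727 in null arrays. All null arrays were lower, and it fell by 0.25 ± 0.08 (SE) on the log2 scale, with a limma adjusted p of 0.026. With centred arrays it was -0.10 with an adjusted p of 0.403, and the call was also lost without any heterozygous array or without null replicate 1 or 2, at differences of -0.26 to -0.18. The brightest probe set, 1437773_x_at, read 5705, 5665 and 7220 against 5309, 5633 and 6837. Its groups overlapped, at -0.06 (interval -0.32 to 0.19). The dim 1439037_at read 83.8, 80.1 and 109 against 40.2, 53.1 and 65.3, with no overlap, a difference of -0.80 and an adjusted p of 0.0618. Without null replicate 3 it was -0.97 and passed, at 0.0443.

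Whether probe sets of 1 gene changed unequally was tested within arrays, and the members passed about as often as all genes. Of the 18 pairs among members, 1 passed, against 5.44% of all 10450 pairs: the dim Ddx17 1439037_at changed by -0.74 ± 0.16 (SE) relative to 1437773_x_at, with a limma adjusted p of 0.0385. In both lines the array numbered 3 was the highest at both of these probe sets. The call was lost in 10 of 16 alternatives, with adjusted p values from 0.0266 to 0.117, among them each of the 6 fits that left out an array, at differences of -0.80 to -0.63. Without heterozygous replicate 3 another pair of members passed.

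Tsn, the translin subunit of C3PO, was higher in null cells on 1 of 4 probe sets. The probe set 1416908_s_at read 4093, 4160 and 4084 in heterozygous and 5017, 4840.1 and 4343 in null arrays. The null arrays were all higher, and it rose by 0.20 ± 0.07 (SE) on the log2 scale with a limma adjusted p of 0.0445. The call was lost in 7 of 18 alternatives, among them the fits without heterozygous replicate 1, 2 or 3 and without null replicate 1 or 2, at differences of 0.16 to 0.21. The probe set 1416907_at read 1798, 1657 and 2042 against 2039, 2128 and 2157, and differed by 0.21 without passing (adjusted p 0.0868); it passed with centred arrays (0.36, adjusted p 0.00629) and without heterozygous replicate 3 (0.29, adjusted p 0.0229). The last pair, 1448515_at and 1448516_at, had intervals of -0.13 to 0.23 and -0.31 to 0.08.

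Tsn lies on chromosome 1 (chr1:118298514-118311461), where the 726 tested genes had a median difference of 0.31 and 45.9% passed as higher. Relative to that median, the brightest Tsn probe set was at -0.11. For the 1097 tested genes of chromosome 11, which holds Ddx5, the median was 0.29, and the brightest Ddx5 probe set stood at -0.20 relative to it. For the chromosomes of the other 8 members the medians were between -0.11 and -0.01. The part of the chromosomes in the differences of these genes was not tested.

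Tsnax, the partner of translin, did not pass. Its bright probe set, 1423395_at, read 2091, 1937 and 1620.4 in heterozygous and 1814, 1621 and 1406 in null arrays. The groups overlapped, at a difference of -0.22 (interval -0.48 to 0.04, adjusted p 0.161). The dim 1430045_at read 41.2, 68.4 and 40.6 against 32.7, 47.7 and 5.86, around the floor of 32, and its difference of -1.22 had an interval of -2.95 to 0.52.

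Other genes of the pathway were read from 7 lists, 1 probe set a gene. Of 111 measured genes, 21 were higher and 40 lower at a limma adjusted p under 0.05, and 55.0% passed, against 48.8% of all 12927 genes, 24.5% higher and 24.3% lower. Of the 10 members in the same fit, 1 passed as higher and 2 as lower. With arrays centred on their medians the split of the 111 was 31 higher and 22 lower, and that of the members 4 and 2, while all genes split into 4176 higher and 2103 lower. Centring moved the median of all genes from -0.01 to 0.14, so the centred counts of each list given next include that common shift. The median log2 difference of the 111 was -0.10 without centring, beside -0.01 for all genes, and 0.06 beside 0.14 with centred arrays.

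**Figure D4:**
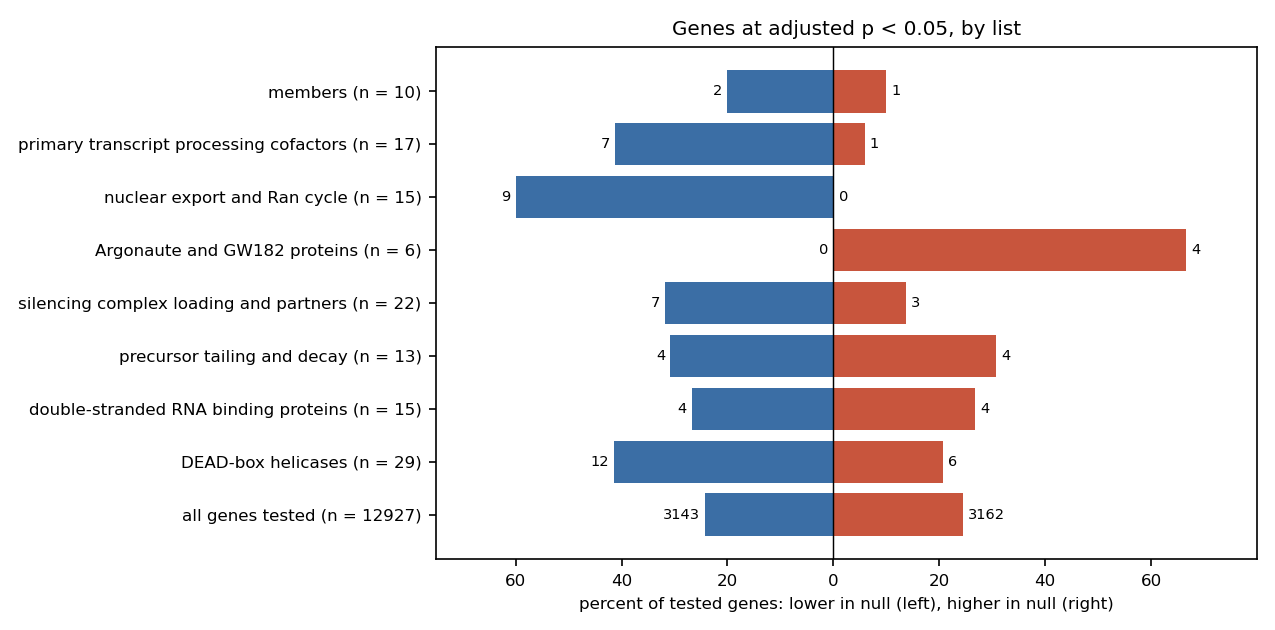
Share of the tested genes of each list that were lower (left) or higher (right) in null cells at an adjusted p under 0.05, in percent, with the number of genes beside each bar. The bars of the members, 2 lower and 1 higher of 10, are shorter in sum than those of all genes tested, 3143 lower and 3162 higher of 12927.

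Among 15 genes of nuclear export and the Ran cycle, the transport system that exportin 5 uses, 9 were lower and 0 higher (at an unadjusted p under 0.05, 10 and 0). With centred arrays 6 of the 15 were lower, and with quantile normalization 11. Over all 12927 genes, 3542 were lower and 3523 higher at an unadjusted limma p under 0.05. Xpo4, another transport receptor, read 1396 ± 79.5 in heterozygous and 789 ± 51.6 in null arrays (SD, n = 3), and fell 1.77-fold at a limma adjusted p of 1.39e-05. Rcc1, which loads GTP onto Ran, fell 1.64-fold and Xpo6, the exportin of actin, 1.56-fold.

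Of 17 cofactors of primary transcript processing, 1 was higher and 7 lower, or 2 and 4 with centred arrays. The scaffold attachment proteins Safb and Safb2 fell by 0.58 and 0.53 on the log2 scale and Tardbp (TDP-43), an RNA-binding protein found with the Microprocessor, by 0.54. Averaged over probe sets, the Safb gene was at -0.28 and did not pass (adjusted p 0.471). Of 29 DEAD-box helicases, 6 were higher and 12 lower, or 7 and 7 with centred arrays. The translation factor Eif4a2 fell 1.75-fold, the decapping activator Ddx6 1.58-fold and the splicing helicase Ddx46 1.57-fold.

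Of 15 double-stranded RNA binding proteins, 4 were higher and 4 lower, or 6 and 2 with centred arrays. Adarb1, an RNA-editing deaminase, fell from 118 ± 17.5 to 56.0 ± 3.79 (SD, n = 3), and Nkrf, a repressor of NF-kappaB targets, fell 1.77-fold. Eif2ak2 (PKR), the kinase that Prkra activates, rose 1.46-fold. Of 13 genes of precursor tailing and decay, 4 were higher and 4 lower, or 4 and 1 with centred arrays. Lin28a, which blocks the maturation of let-7 precursors, fell by 2.56 on the log2 scale, Dis3l2, which degrades the tailed precursors, rose from 75.6 ± 29.2 to 210.1 ± 18.6, and the exonuclease Xrn1 fell by 0.90. The call of Xrn1 was lost without heterozygous replicate 1 (-0.82), without null replicate 2 (-0.80) or 3 (-0.91), and with centred arrays (-0.74). Without heterozygous replicate 2 (-0.33) or null replicate 1 (0.051) the brightest Xrn1 probe set was not the reported one, and it did not pass.

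Of 6 measured Argonaute and GW182 genes, 4 were higher and 0 lower (4 and 0 at an unadjusted p under 0.05). Of all 12927 genes, 3523 were higher and 3542 lower at that unadjusted p. With quantile normalization 3 of the 6 were higher and 0 lower, and with centred arrays 4 and 0. Ago1 rose 2.16-fold and the GW182 genes Tnrc6a and Tnrc6b 1.74-fold each. Without null replicate 1, 2 or 3 in turn and with quantile normalization, another Tnrc6b probe set was the brightest. That one was at 0.18 to 0.20 and did not pass. Tnrc6a did not pass without an intensity trend in eBayes (adjusted p 0.0668). Ago2, the slicer, differed by -0.02 (adjusted p 0.854). Of 22 loading factors and partners of the silencing complex, 3 were higher and 7 lower, or 9 and 3 with centred arrays. The helicase Mov10 rose from 985 ± 71.0 to 2969 ± 144 (SD, n = 3), while Ddx6 and the nuclease Snd1 fell by 0.66 and 0.60 on the log2 scale, Snd1 without passing when eBayes had no trend (adjusted p 0.0512).

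Over the 6 arrays, the genes whose log2 intensity followed the brighter Dicer1 probe set most closely were Mrps5 (Pearson r = 0.995), Cxxc1 (0.990) and Slc17a9 (0.986). They are the first 3 of 12927 genes ranked on 6 points each, and none of them passed. Among the members, Tsn (0.70) followed Dicer1 most closely and Tarbp2 (-0.69) ran most against it. These arrays share their lines, so the values only describe the 6 arrays.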

How the data were processed

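Total RNA of mouse embryonic stem cells was amplified into labelled cRNA and hybridised to Affymetrix arrays, per the labels' protocols. The deposited values are probe set intensities on a linear scale, 1 column per array, and the mean of each array after trimming 2% at each end is near 500 units. GCRMA is the only tool in the submitters' processing notes, without a version or step; detection calls were not used here. Intensity carries no read depth: precision is set by having 3 arrays a line.

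Control probe sets, 64 in all, were not analysed. Values were turned into log2, and a probe set was tested if it reached a log2 value of 5 (intensity 32) on at least 3 of 6 arrays, which left 26545. The fit was limma 3.58.1 in R 4.3.3 (lmFit, eBayes with an intensity trend) with line as the only term, two-sided, and Benjamini-Hochberg adjustment over all features tested. The plan assumed deposited log2 values. A second fit took 1 probe set a gene, the brightest, over 12927 genes. The brightest was chosen anew in each alternative fit. Another fit compared, within each array, every other probe set of a gene with its brightest one, over 10450 pairs. The fits were tested on simulated data. Platform annotation named 1 gene for 34945 probe sets, several for 932 and none for 9160; 0 symbols changed through the mouse gene table of GRCm38.p6.

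All member probe sets are named whatever their values, up to 3 passing genes of each other list by size of difference, and the 3 genes most correlated with Dicer1. Members and lists were chosen with earlier results of these data known. Some probe set suffixes mark shared sequence: a for transcripts of 1 gene, s for several genes and x for probes that may cross-hybridise. The alternatives were other filters, log scales, variance priors, scalings, the replicate number as a block, array weights, other ways to represent a gene, a stricter threshold and leaving out each array. Leaving out both arrays numbered 3 was added after seeing the data.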

Additional observations from a re-analysis of the deposited data

How the results depend on the processing

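Of the member probe sets, 6 passed as reported. The count was 14 with the replicate number as a block, 3 at an adjusted p under 0.01, and 3 to 8 without each array in turn. Member genes that passed numbered 3, and 6 with arrays centred on their medians, 5 with the block, and 2 to 3 without each array. Of all genes, 48.8% passed as reported and 48.6% with centred arrays. For the block, the stricter threshold and the fits without an array, the share of all tested features that passed was not counted. The labels do not say whether arrays of the same replicate number share a culture or a batch. Deviations of same-numbered arrays correlated at 0.03, 0.03 and 0.08, and each array correlated best with its own number. With the block, Ddx5 1438371_x_at passed at an adjusted p of 0.000804 and Ddx5 1454793_x_at at 0.0143. The 1 member pair of probe sets with unequal change became 0 with no filter, a log2 filter of 7, eBayes without a trend, quantile normalization or both arrays numbered 3 left out, 2 with the block, and 0 to 1 without each array. The cause was not tested. The count past 2-fold was 1 in all alternatives, and the other pathway genes that passed numbered 47 to 68, 61 as reported.

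Signs turned only where neither value passed, apart from Xrn1, whose reported value had passed. The Xrn1 values without null replicate 1, where the sign turned, and without heterozygous replicate 2 were not from the reported probe set. The brightest was chosen anew in each fit, so the Xrn1 range given next mixes probe sets. Without each array in turn, the log2 difference ranged from -0.092 to 0.019 for Drosha 1428656_at, from -0.0035 to 0.34 for Drosha 1438505_s_at, from -0.084 to 0.062 for Dicer1 1460571_at, from -0.11 to 0.28 for Prkra 1448923_at, from -0.93 to 0.17 for Ddx5 1433809_at, from -0.014 to 0.46 for Ddx5 1454793_x_at, from -0.17 to 0.051 for Ddx17 1437773_x_at, from -0.021 to 0.11 for Tsn 1448515_at and from -1.21 to 0.051 for Xrn1. With centred arrays Drosha 1428656_at was at 0.13, Ddx17 1437773_x_at at 0.091, Tsn 1448516_at at 0.039, Dgcr8 1455311_at at 0.032 and Dicer1 1460571_at at 0.15. Without both arrays numbered 3, Ddx5 1433809_at was at 0.32. As genes, Drosha was at -0.15 as a mean over its probe sets and at -0.024 without probe sets of shared sequence, where Ddx5 was at -0.39. Averaged over probe sets, the Ddx17 gene was at -0.37 and passed, at an adjusted p of 0.0259, against -0.064 as reported. The Tsnax gene was at -0.33 and passed without heterozygous replicate 3, at 0.0313. As a gene, Tsn lost its call in 8 alternatives, while Tarbp2 and Xpo5 kept theirs in all that were run. Without null replicate 1 and 2 the brightest Tsn probe set became 1448515_at, at 0.079 and 0.071, while 1416908_s_at was at 0.16 and 0.18.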

Other observations

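The arrays numbered 3 stood out at a class of probe sets in both lines. Over the tested probe sets, replicate number 3 was the highest array of both lines for 17.5%, number 1 for 12.8% and number 2 for 8.99%. For number 3 the share was 16.6% among 19470 probe sets with the plain suffix, 15% among 3650 with the suffix a, 21.2% among 1716 with the suffix s and 28.7% among 1709 with the suffix x. Of the 28 tested members, number 3 led in both lines at 8, number 1 at 1 and number 2 at 2. The probe sets with suffix x among these 8 were those of Ddx5 and Ddx17, while Tarbp2 1438952_x_at was highest in heterozygous replicate 2 and null replicate 1. What the arrays numbered 3 share was not tested.

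Of 8 tested fibroblast markers, 1 passed as higher in null cells (Dcn) and 2 as lower (Col1a1 and Thy1), and 5 did not pass. Dcn read at most 58.4 in heterozygous and 316, 269 and 203 in null arrays, while Col1a1 read 90.9, 38.3 and 80.9 against 7.43, 4.44 and 7.99. Of the markers that did not pass, Col1a2 and Col3a1 also read lower on every null array than on any heterozygous one, at log2 differences of -0.79 and -0.87. Of 10 ES cell markers, 1 passed as higher and 3 as lower, and of 8 primitive endoderm markers, 0 and 3. Of all tested genes, 24.5% passed as higher and 24.3% as lower.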
